A study of Mus musculus with 10 samples.

Results

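Complex I subunit genes are the nuclear genes named Ndufa, Ndufb, Ndufc, Ndufs and Ndufv, which encode the parts of NADH:ubiquinone oxidoreductase made outside the mitochondrion. Members were taken as every protein-coding gene with such a symbol followed by a number and with at least 10 counts in each of the 10 libraries. Of 37583 gene rows, 40 had a matching symbol. The 3 processed pseudogenes among these, Ndufa11b, Ndufb4c and Ndufs6b, were left out, and all 37 protein-coding genes met the count minimum and entered the test. The lowest count of any member in any library was 52, for Ndufa4l2.

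Complex I takes electrons from NADH and passes them to ubiquinone, and couples this to pumping protons across the inner mitochondrial membrane. Its matrix arm consists of the N module, which oxidises NADH, and the Q module, which reduces ubiquinone, and its membrane arm has a proximal and a distal part. Around a core conserved from bacteria, mammals have many accessory subunits, and the core subunits of the membrane arm are encoded in mitochondrial DNA, which is not analysed here. Heart muscle depends on oxidative phosphorylation, the ATP production that the respiratory chain drives, and cardiomyocytes are packed with mitochondria.

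The libraries came from left atria of adult mice. Vehicle-treated mice (CTL) and mice given ibrutinib (IBR), a Bruton's tyrosine kinase inhibitor, gave 3 libraries each. Untreated wild-type mice (WT) and mice labelled cardiac CSK KO (KO) gave 2 libraries each, called WT35, WT338, KO26 and KO337 after their titles. The strain, sex, age beyond adult, ibrutinib dose and duration, and the promoter and cells in which Csk was deleted were not stated in the labels, nor does any source say that the libraries are from different animals. The p-values therefore describe the spread between libraries, which may be technical.

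Csk, the gene named in the genotype label, stood at 18.3 and 17.8 CPM (a count relative to all gene counts of its library, scaled by edgeR's trimmed mean of M values, TMM) in WT against 24.7 and 35.5 CPM in KO26 and KO337 (log2 difference 0.74, SE 0.18, edgeR adjusted p = 0.0608). These counts go against the label, although whole-gene counts of whole atria do not resolve the loss of an exon or of Csk in 1 cell type, and the text therefore writes labelled KO throughout. Counts on genes ran from 14907331 to 19960947 per library. Atrial Myl7 stood at 2044 to 8989.5 CPM and ventricular Myl2 at no more than 8.62 CPM, as the tissue label has it. Within groups, libraries correlated over genes at Spearman's 0.984 to 0.991, and KO26 and KO337 at 0.955. Leukocyte, fibroblast and cardiomyocyte markers also lay apart between WT and the labelled KO libraries, and those values stand beside the results they touch. In bulk tissue, fewer cells of a type and less RNA per cell cannot be told apart.

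Promoter sequences were matched for 32 of the 37 members in RefSeq (build GRCm38.p6). Members without a match included Ndufa2, Ndufa4l2, Ndufb9 and Ndufs1. The 250 bases before the annotated start were searched on both strands for the letters of 5 motifs of factors known for respiratory genes, none of which contains another. The motif of nuclear respiratory factor 1 (NRF1), searched as GCGC, any base and TGCGC, was in 6 of 32 members (18.8%), against 8.47% of 11175 tested genes with a sequence. CREB's TGACGTCA was in 3 (9.38%, against 2.88%), and the oestrogen-related receptor motif CAAGGTCA was in 1, Ndufs5 (3.12%, against 1.25%). The ETS motif CCGGAAG was in 3 (9.38%, against 14.3%) and the Sp1 motif GGGCGG in 13 (40.6%, against 61.4%). A match describes these letters only, and no binding was measured. The 4 promoters below are examples of sequence without and with an NRF1 match. Ndufb8 had the lowest fitted difference in both comparisons and no NRF1 match. Ndufa11 of the membrane arm, Ndufs6 of the N module and Ndufa8 of the membrane arm hold the match. They are read along the gene's strand from 5′ to 3′ and end at the base before the start, with motif matches in capitals. The window of Ndufb8 lies at chr19:44555443-44555692 on the minus strand, Ndufa11 at chr17:56717512-56717761 on the plus strand, Ndufs6 at chr13:73328483-73328732 on the minus strand and Ndufa8 at chr2:36049339-36049588 on the minus strand.
Ndufb8: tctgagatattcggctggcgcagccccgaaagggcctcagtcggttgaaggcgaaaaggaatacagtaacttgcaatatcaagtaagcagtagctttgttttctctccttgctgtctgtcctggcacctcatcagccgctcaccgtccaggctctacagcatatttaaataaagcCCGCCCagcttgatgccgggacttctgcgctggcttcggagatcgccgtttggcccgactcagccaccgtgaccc
Ndufa11: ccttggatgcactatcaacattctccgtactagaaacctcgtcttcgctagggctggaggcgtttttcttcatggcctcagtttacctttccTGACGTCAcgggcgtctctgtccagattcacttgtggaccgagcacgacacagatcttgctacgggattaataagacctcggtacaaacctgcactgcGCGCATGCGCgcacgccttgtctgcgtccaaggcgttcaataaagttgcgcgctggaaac
Ndufs6: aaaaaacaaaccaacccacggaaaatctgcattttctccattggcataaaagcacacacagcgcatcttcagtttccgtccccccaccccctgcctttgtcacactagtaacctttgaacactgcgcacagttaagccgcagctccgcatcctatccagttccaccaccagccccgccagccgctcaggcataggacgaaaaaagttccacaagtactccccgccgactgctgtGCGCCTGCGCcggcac
Ndufa8: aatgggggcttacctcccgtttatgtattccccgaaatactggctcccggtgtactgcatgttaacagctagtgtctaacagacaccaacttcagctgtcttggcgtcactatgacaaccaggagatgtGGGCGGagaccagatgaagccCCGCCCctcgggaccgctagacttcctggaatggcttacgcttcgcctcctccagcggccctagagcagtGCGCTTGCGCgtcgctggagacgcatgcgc
The capitals are an Sp1 match on the reverse strand in Ndufb8, a CREB match followed by an NRF1 match in Ndufa11, an NRF1 match in Ndufs6, and Sp1 matches on either strand followed by an NRF1 match in Ndufa8. The log2 differences of these genes were -0.50, -0.42, -0.37 and -0.33 for IBR and -0.94, -0.61, -0.73 and -0.74 for labelled KO, in the order shown. For Ndufa8 the SEs were 0.20 and 0.25 and the edgeR adjusted p-values 0.823 and 0.111. Because Ndufb8 is the lowest member in both comparisons, any member set beside it lies higher, with or without a match. Whether the motif goes with the difference was not tested.

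Between ibrutinib and vehicle, complex I subunit transcripts stood slightly lower in IBR as a group, but none passed the test. The fitted log2 difference was negative for 36 of 37 members, against 55.2% of the 15364 genes tested, and positive for 1, against 44.7%. Its median was -0.34 (a change of -21.2%), against -0.03 over all genes. With edgeR's quasi-likelihood fit and Benjamini-Hochberg adjustment over all genes, 0 members were lower and 0 higher (adjusted p under 0.05), and 0% of all genes were called in either direction. At an unadjusted p under 0.05, 3 members were lower (Ndufb5, Ndufa11 and Ndufb7), where 2.21% of all genes were lower, and 0 were higher, where 3.31% were. DESeq2 and limma voom also called 0 members. Voom was run with sample quality weights throughout, which let some libraries count for more than others. They ran from 0.338 for KO337 and 0.363 for KO26 to 2.12 for IBR3 and 2.38 for CTL1. At an unadjusted p under 0.05, DESeq2 had 5 members lower and 1 higher, where 1.52% and 2.34% of 24494 genes were. Those 24494 had no filter on low counts, so these shares are not on the base of the others. At the same threshold voom had 27 members lower and 1 higher, where 7.89% and 8.19% of the 15364 genes were. All IBR libraries lay below all CTL libraries for 5 members (Ndufa9, Ndufa12, Ndufb2, Ndufb5 and Ndufb10) and above them for 1 (Ndufa4l2), where 7.55% and 5.91% of all genes did.

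In the N module, Ndufv1 and Ndufs1 differed least. Ndufv1, which carries the flavin that accepts electrons from NADH, stood at 906, 934 and 757 CPM in CTL and 739, 882 and 736 CPM in IBR (log2 difference -0.14, SE 0.21). Ndufs1, the iron-sulfur protein that passes these electrons on, stood at 876, 820.3 and 746 CPM in CTL and 667, 805 and 749 CPM in IBR (log2 difference -0.14, SE 0.23). Their groups overlapped, and these were the members nearest to no difference. Ndufv2, the other iron-sulfur subunit of the module's core, stood at 616, 629.8 and 417 CPM in CTL and 447, 447 and 418 CPM in IBR (log2 difference -0.34, SE 0.24). CTL3 lay just under the IBR libraries there, while CTL1 and CTL2 lay above them. Of the accessory subunits, Ndufa12, a relative of an assembly factor whose place it takes in the finished enzyme, stood at 229.9, 269 and 200.2 CPM in CTL and 181, 188 and 168 CPM in IBR (log2 difference -0.38, SE 0.19), with no overlap. Ndufs4, which holds the N module to the rest of the arm and whose loss in mice gives a Leigh-like disease, and Ndufs6, a zinc-binding subunit needed to attach the module, both had a log2 difference of -0.37. For both genes, CTL3 was the lowest of the 6 libraries. Ndufs4 stood at 192, 216 and 128 CPM in CTL and 139.9, 137 and 138 CPM in IBR, with the IBR libraries close together and the CTL libraries spread on either side.

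The core subunits described from the Q module overlapped between the groups. Ndufs7, which carries the last iron-sulfur cluster of the chain, stood at 384, 391 and 315 CPM in CTL and 274, 336 and 249 CPM in IBR (log2 difference -0.34, SE 0.20). Ndufs3, a structural core subunit, had a difference of -0.35 and Ndufs8, a ferredoxin-like core subunit, one of -0.40. IBR2 lay above CTL3 for each of these 3 genes. Ndufa9, an accessory subunit near the ubiquinone pocket, stood at 487, 466 and 399.9 CPM in CTL and 356, 391 and 361 CPM in IBR (log2 difference -0.29, SE 0.18). Its groups did not overlap, but the nearest libraries, CTL3 and IBR2, differed by less than the CTL libraries did among themselves. Ndufa6, which docks the mitochondrial acyl carrier protein, stood at 235, 287 and 174 CPM in CTL and 173, 190.2 and 158 CPM in IBR (log2 difference -0.42, SE 0.19), with overlap.

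The membrane arm held the lowest difference. Ndufb8, a subunit of the distal arm often used to detect complex I on blots, stood at 212, 255 and 147 CPM in CTL and 152, 152 and 130.1 CPM in IBR (log2 difference -0.50, SE 0.23, edgeR adjusted p = 0.823). CTL3 lay among the IBR libraries there. Ndufb5 stood at 318, 362 and 236 CPM in CTL and 227, 234 and 219 CPM in IBR (log2 difference -0.43, SE 0.18, edgeR adjusted p = 0.823), with the groups apart by the gap between CTL3 and IBR2. Ndufb10 stood at 547, 531 and 390.3 CPM in CTL and 368, 370.2 and 347 CPM in IBR (log2 difference -0.44, SE 0.22), and its groups were also apart. Ndufb7, a subunit on the intermembrane face, stood at 256, 273 and 185 CPM in CTL and 191, 181 and 154 CPM in IBR (log2 difference -0.44, SE 0.20). In the proximal arm, Ndufa11, which helps hold the membrane arm together, stood at 366, 379.9 and 273 CPM in CTL and 258, 275 and 227 CPM in IBR (log2 difference -0.42, SE 0.18). CTL3 lay between IBR1 and IBR2 for Ndufa11 and between IBR2 and IBR1 for Ndufb7. The median difference was -0.32 over the 8 N module members, -0.35 over the 8 of the Q module, -0.32 over the 9 of the proximal arm and -0.41 over the 10 of the distal arm. The 7 core subunits had a median of -0.34 and the 28 accessory subunits one of -0.35.

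**Figure D1:**
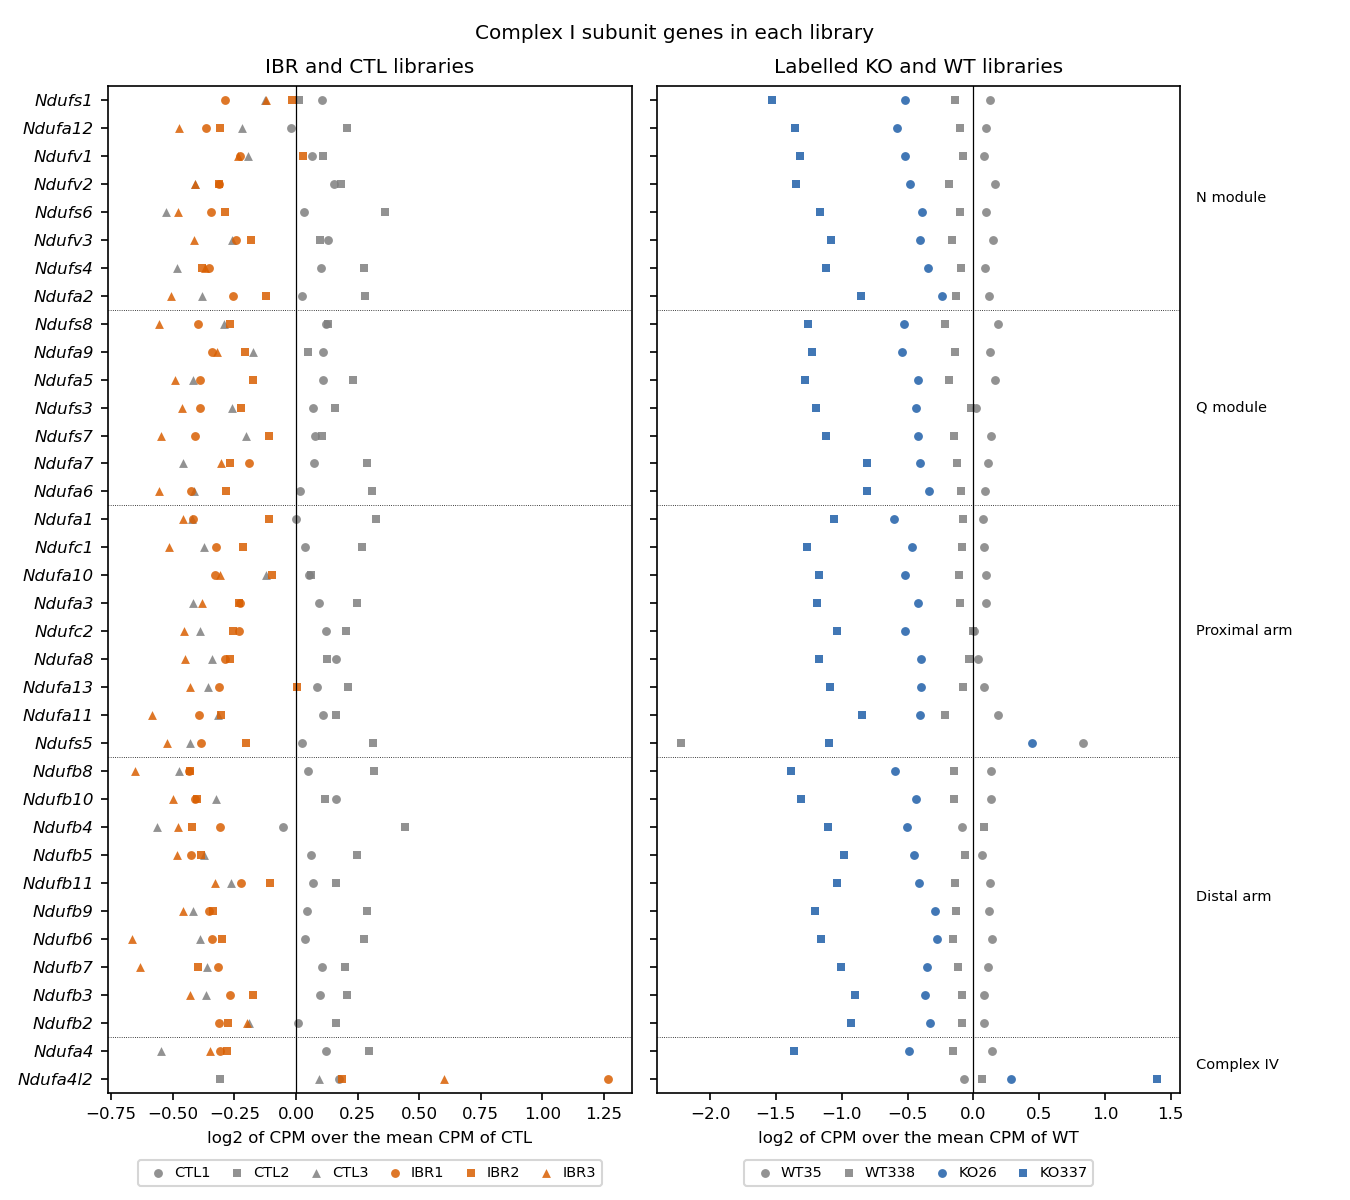
Level of each of 36 members in each library, as the log2 ratio of its CPM to the mean CPM of CTL (left) or WT (right); each point is 1 library and dotted lines part the modules. CTL3 (grey triangle) lies with the IBR libraries for most members. KO337 lies left of KO26 for all members shown but Ndufa4l2, with Ndufs5 scattered. Scaled to sarcomere markers, 34 of the 37 labelled KO differences are positive, where 94.3% of all genes are.

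The CTL libraries were spread widely. The summed level of the 37 members was 12873, 13777 and 9922 CPM in CTL and 9742, 10739 and 9321 CPM in IBR, so that CTL3 lay below IBR2. CTL3 was the lowest CTL library for 36 of 37 members, and CTL2 the highest for 31. Without CTL2 the median difference was -0.21. Without CTL3 it was -0.48 with 19 members lower at an unadjusted p under 0.05, where 4.88% of all genes were, and without CTL1, CTL2, IBR1 or IBR3 no member reached it. In CTL, the share of records that fell in no gene ran in the same order as the members' sum, at 15.6%, 18.4% and 13.5% for CTL1, CTL2 and CTL3, and in IBR it was 14.3%, 16.6% and 14.3%. Fibroblast markers had positive differences in IBR for 7 of 7, with summed levels of 1035 to 1599 CPM in CTL and 1636 to 2472 CPM in IBR, 0 called by edgeR and 2 at an unadjusted p under 0.05. Leukocyte markers had positive differences for 11 of 12 (median 0.41, 0 called by edgeR, 2 at an unadjusted p under 0.05), with summed levels of 199 to 235 CPM in CTL and 248 to 383 CPM in IBR, which did not overlap. The summed level of the 9 sarcomere markers tested overlapped, at 61493 to 73619 CPM in CTL and 63331 to 67139 CPM in IBR. Of these 9, 7 had negative differences (median -0.13), as had 5 of 7 atrial markers (median -0.16). Of 8 endothelial markers, 6 were positive (median 0.35). EdgeR called 0 of each. Over all genes in IBR against CTL, 44.7% were positive and 3.31% were higher at an unadjusted p under 0.05. Tnnc1, also on the list of sarcomere markers, stood at 0 to 2 counts in every library and could not be used. Whether the counting lost its reads was not tested. Scaled to sarcomere markers, 36 of 37 members stayed negative in IBR, with a median of -0.24, against 0.055 over all genes. On that scale edgeR called 0 members, with 1 lower at an unadjusted p under 0.05, where 0.514% of all genes were. Short transcripts had lower differences as a class: over 550 protein-coding genes whose longest transcript had at most 934 bases, the members' median length, the median difference was -0.20, and 77.5% were negative, against -0.02 over 13250 longer genes. The 19 members in the short class had a median of -0.33 and the 18 longer members one of -0.34. The part of these shares, markers and lengths in the result was not tested.

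Between the labelled KO and WT libraries, complex I subunit transcripts stood lower in CPM in both KO26 and KO337, more so in KO337, though not relative to sarcomere markers, and again none passed the test. The log2 difference was negative for 36 of 37 members, against 49.2% of all genes, and positive for 1, against 50.7%. Scaling to sarcomere markers made 34 of 37 positive, where 94.3% of all genes were. The members' median on that scale was 0.18, against 1.02 over all genes. On the TMM scale the median was -0.74 (a change of -40.0%), against 0.01 over all genes. With edgeR's quasi-likelihood fit, 0 members were lower and 0 higher (adjusted p under 0.05), where 0.898% and 1.31% of all genes were. The smallest adjusted p was 0.0654 for Ndufa12. At an unadjusted p under 0.05, 34 members were lower and 1 was higher, where 12.4% and 13.3% of all genes were. Both labelled KO libraries lay below both WT libraries for 35 members, where 26.9% of all genes did, and above them for 1, Ndufa4l2, where 26.3% did.

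Calls of single members turned on the tool and on KO26. DESeq2 called 19 members lower, where 6.28% of the 14802 genes with a DESeq2 adjusted p were. They included Ndufa1, Ndufa8, Ndufa9, Ndufa10, Ndufa12, Ndufb5, Ndufb8, Ndufb10, Ndufb11, Ndufc1, Ndufc2, Ndufs1, Ndufs3, Ndufs7, Ndufs8, Ndufv1, Ndufv2 and Ndufv3. Without the filter on low counts edgeR called 21 lower, where 2.77% of the 24494 genes then tested were. Limma voom called 0, with 31 lower at an unadjusted p under 0.05, where 8.4% of all genes were. The edgeR fit on the WT and labelled KO libraries alone called 0, with a smallest adjusted p of 0.324 and 12 lower at an unadjusted p under 0.05, where 5.03% were. Without KO26, edgeR called 35 members lower and 1 higher, where 13% and 11.3% of all genes were called, with a median of -1.14. Without KO337 the median was -0.44 with 0 called and 10 lower at an unadjusted p under 0.05, where 7.6% of all genes were. Without WT35, 14 members were lower at that threshold, where 7.71% were.

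In the N module the core subunits held some of the lowest values. Ndufs1 stood at 797 and 661 CPM in WT against 509 and 253 CPM in KO26 and KO337 (log2 difference -0.94, SE 0.29, edgeR adjusted p = 0.0931). Ndufv1 stood at 529.6 and 474 CPM in WT against 350.0 and 201 CPM in KO26 and KO337 (log2 difference -0.87, SE 0.26, edgeR adjusted p = 0.0881), and Ndufv2 at 477 and 374 CPM in WT against 305 and 167 CPM in KO26 and KO337 (log2 difference -0.85, SE 0.29). For each of these, KO26 lay below both WT libraries and KO337 lower again. Ndufa12 stood at 119 and 104 CPM in WT against 74.8 and 43.6 CPM in KO26 and KO337 (log2 difference -0.92, SE 0.24). Ndufs6 stood at 111 and 96.9 CPM in WT against 79.4 and 46.4 CPM in KO26 and KO337 (log2 difference -0.73, SE 0.29) and Ndufs4 at 156 and 137 CPM in WT against 115 and 67.4 CPM in KO26 and KO337 (log2 difference -0.68, SE 0.27). At the other end, Ndufa2, a small subunit with a thioredoxin-like fold, stood at 118 and 99.0 CPM in WT against 91.9 and 60.0 CPM in KO26 and KO337 (log2 difference -0.52, SE 0.25, edgeR adjusted p = 0.225), with KO26 just under WT338.

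The Q module and the membrane arm had like values. Ndufs3, a structural core subunit, stood at 150.03 and 146 CPM in WT against 109 and 64.7 CPM in KO26 and KO337 (log2 difference -0.77, SE 0.24). Ndufs7 and Ndufs8 had differences of -0.73 and -0.85. Ndufa9 stood at 351 and 293 CPM in WT against 221 and 137 CPM in KO26 and KO337 (log2 difference -0.85, SE 0.23, edgeR adjusted p = 0.0708). Ndufa6 had the smallest difference of the Q module (-0.55). In the proximal arm, Ndufa10, a relative of nucleoside kinases, stood at 471 and 409 CPM in WT against 306 and 195 CPM in KO26 and KO337 (log2 difference -0.81, SE 0.22, edgeR adjusted p = 0.0773). Ndufc2 stood at 118 and 118 CPM in WT against 82.4 and 57.8 CPM in KO26 and KO337 (log2 difference -0.76, SE 0.22), with WT libraries that nearly coincided. In the distal arm, Ndufb8 stood at 179.8 and 148 CPM in WT against 109 and 62.6 CPM in KO26 and KO337 (log2 difference -0.94, SE 0.29, edgeR adjusted p = 0.0942), and Ndufb10, Ndufb11, Ndufb5 and Ndufb7 had differences of -0.81, -0.69, -0.69 and -0.64. Median differences were -0.79, -0.77, -0.76 and -0.68 for the N module, Q module, proximal and distal arms, -0.85 for core and -0.70 for accessory subunits. Over the 36 members without Ndufa4l2, the more abundant ones had the lower differences, with a Pearson correlation of -0.50 and a Spearman correlation of -0.46 between the log2 difference and the mean log2 CPM. Over 13800 protein-coding genes the same correlations were -0.34 and -0.36. These are across genes, which share the libraries and are not independent replicates.

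Marker genes of cell types also lay apart between WT and labelled KO. All 9 sarcomere markers tested had negative differences (median -0.90, 0 called by edgeR, 7 at an unadjusted p under 0.05), with summed levels of 67539 and 64844 CPM in WT and 50094 and 24449 CPM in KO26 and KO337. The median ratio to the WT mean was 0.691 and 0.365 over sarcomere markers and 0.746 and 0.460 over the complex I members in KO26 and KO337. All 12 leukocyte markers had positive differences (median 2.35, 4 called higher), with summed levels of 326 and 331 CPM in WT and 648 and 2867 CPM in KO26 and KO337. All 7 fibroblast markers were positive as well (median 1.73, 0 called by edgeR, 5 at an unadjusted p under 0.05), with 2692 and 2429 CPM in WT and 3118 and 12066 CPM in KO26 and KO337. Over all genes, 50.7% were positive and edgeR called 1.31% higher. At an unadjusted p under 0.05, 13.3% of all genes were higher and 12.4% lower. Read relative to sarcomere markers, 34 members had positive and 3 (Ndufa12, Ndufb8 and Ndufs1) negative differences, with 1 called higher, Ndufa4l2. On that scale the median over all genes was 1.02, 94.3% of all genes were positive and 63.7% were called higher. The share of the members' difference that goes with cell composition was not tested.

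**Figure D2:**
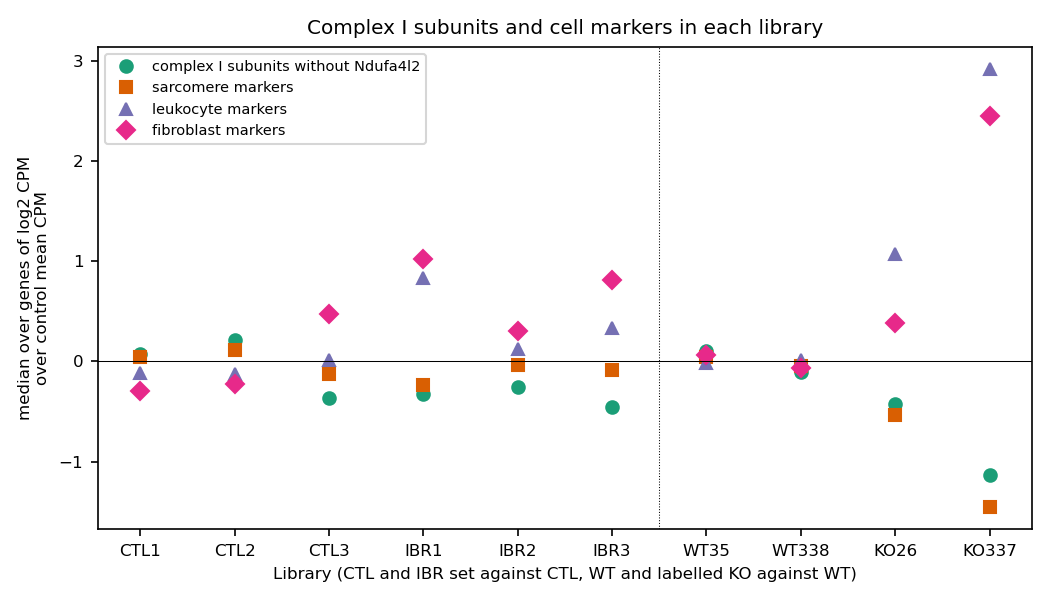
Median over genes of the log2 ratio to the control mean (CTL for CTL and IBR, WT for WT and labelled KO) in each library, for 36 complex I members, 9 sarcomere, 12 leukocyte and 7 fibroblast markers; each point is 1 library and list. In KO26 and KO337 the complex I members lie just above the sarcomere markers, while leukocyte and fibroblast markers lie above 0. Once scaled to sarcomere markers, 34 of 37 members are positive, where 94.3% of all genes are. CTL3 lies with the IBR libraries for the members.

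The differences in both comparisons, which share no library, were not clearly correlated among members. Over 36 members without Ndufa4l2, the Pearson correlation of the IBR and labelled KO differences was -0.11 and the Spearman correlation -0.08. With Ndufa4l2 the Pearson correlation was 0.78 and the Spearman correlation 0.01, so that the first rests on that gene. Over 13800 protein-coding genes the same correlations were 0.33 and 0.41. Across the 36 members the differences had SDs of only 0.084 for IBR and 0.145 for labelled KO, below the SE of each gene. A correlation near 0 therefore cannot show whether the effects run in parallel. Ndufs1 and Ndufv1 differed most between the comparisons, with log2 differences of -0.14 and -0.14 under ibrutinib and of -0.94 and -0.87 in labelled KO. In the test of the labelled KO effect minus the IBR effect, 35 of 37 members were negative, against 47.3% of all genes, and 2 positive, against 52.7%. The median was -0.41, against 0.03 over all genes. EdgeR called 0 members (adjusted p under 0.05), where 0.026% of all genes were called lower and 0% higher. At an unadjusted p under 0.05 there were 0 members, where 4.82% of all genes were lower. DESeq2 also called 0, with 4 lower at an unadjusted p under 0.05, where 3.65% of 24494 genes without the filter were. Voom called 0, with 2 lower at that threshold, where 4.65% of the 15364 genes were. The smallest p-values belonged to Ndufv1 (log2 difference -0.73, SE 0.33, edgeR adjusted p = 0.507), Ndufs1 (log2 difference -0.80, SE 0.37, edgeR adjusted p = 0.511) and Ndufa10 (log2 difference -0.57, SE 0.29, edgeR adjusted p = 0.546). Without KO26, 7 members were called lower, where 5.82% of all genes were, with a median of -0.84. Without KO337 the median was -0.15 and without CTL3 -0.27. Scaled to sarcomere markers it was 0.40, against 0.95 over all genes.

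**Figure D3:**
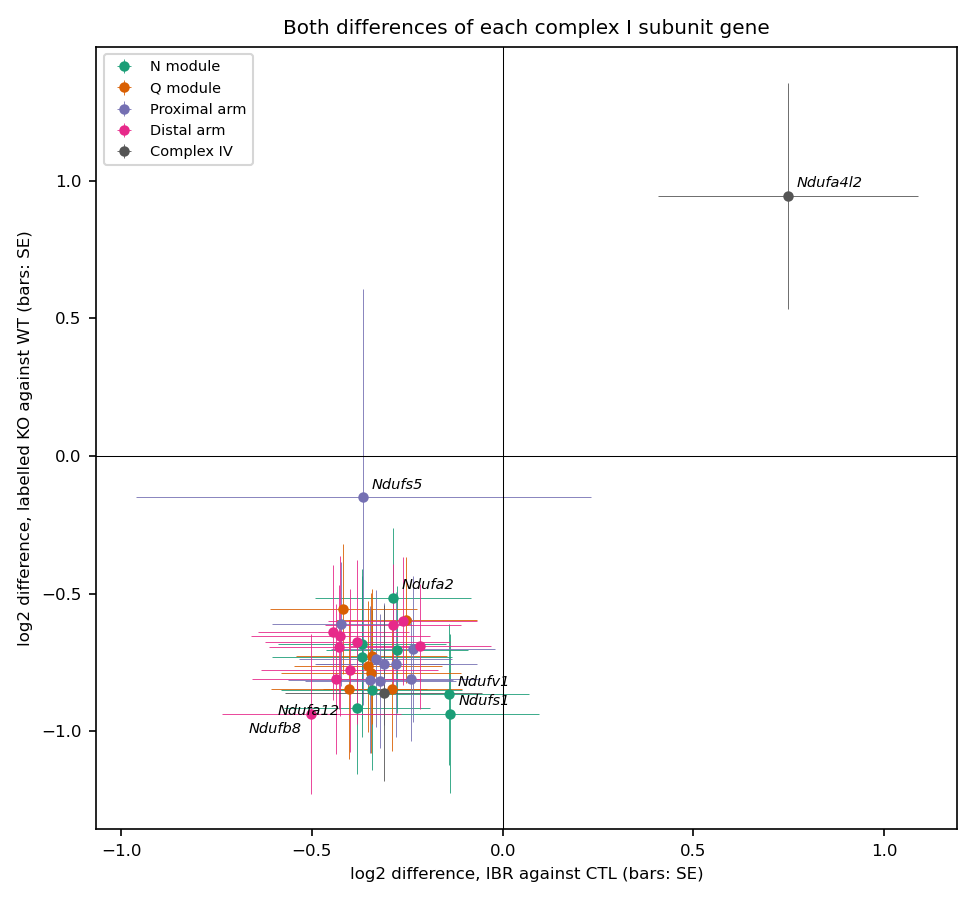
Log2 difference of 36 members for IBR against CTL (horizontal) and labelled KO against WT (vertical), with bars of 1 SE, coloured by module. The members form a compact cloud around -0.34 and -0.74 apart from Ndufa4l2 (0.75 and 0.95) and Ndufs5, whose bars are the longest. Scaled to sarcomere markers, 34 of all 37 labelled KO differences are positive, where 94.3% of all genes are.

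Some genes named Nduf stood apart. Ndufa4, first described with complex I and since placed in complex IV, stood at 788, 890.4 and 496 CPM in CTL and 586, 596 and 569 CPM in IBR (log2 difference -0.31, SE 0.26) and at 691 and 565 CPM in WT against 448 and 244 CPM in KO26 and KO337 (log2 difference -0.86, SE 0.32), both within the range of the other members. Ndufa4l2, its hypoxia-induced relative, was the only member with positive differences in both comparisons in edgeR's fit of all libraries. It stood at 5.23, 3.75 and 4.95 CPM in CTL and 11.2, 5.28 and 7.03 CPM in IBR (log2 difference 0.75, SE 0.34, edgeR adjusted p = 0.823). In the other comparison it stood at 5.10 and 5.60 CPM in WT against 6.501 and 14.0 CPM in KO26 and KO337 (log2 difference 0.95, SE 0.41, edgeR adjusted p = 0.182). All IBR libraries lay above all CTL libraries, and both labelled KO libraries above both WT, but IBR1 and KO337 stood furthest out. Without IBR1 the difference was 0.40, and without KO337 0.26. Scaled to sarcomere markers the differences were 0.86 and 2.09. IBR1 and KO337 were also the libraries with the highest summed leukocyte and fibroblast markers of their groups. Of 8 smooth muscle and pericyte markers, 5 had positive differences in IBR and 6 in labelled KO, with medians of 0.08 and 0.64. EdgeR called 0 of them, with 1 and 3 higher at an unadjusted p under 0.05, where 3.31% and 13.3% of all genes were. Scaled to sarcomere markers, 6 and 8 were positive, where 94.3% of all genes were for labelled KO. Their summed levels were 312 to 363 CPM in CTL, 321 to 427 CPM in IBR, 527 and 508 CPM in WT, and 583 and 1029.8 CPM in KO26 and KO337. The part of these cells in the Ndufa4l2 values was not tested.

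Ndufs5, a subunit on the intermembrane face of the proximal arm, gave no usable genotype value. It stood at 31.5 and 3.77 CPM in WT against 24.0 and 8.24 CPM in KO26 and KO337, from 636, 60, 413 and 182 counts, so that WT35 and WT338 differed more than the groups did (log2 difference -0.15, SE 0.76, edgeR adjusted p = 0.926). Without WT35 the difference was 2.08, without KO337 0.40, and with voom 0.17. Its CTL and IBR values, 95.4, 116 and 69.7 CPM in CTL and 71.8, 81.4 and 65.2 CPM in IBR, were less scattered. Ndufb2 was read from 99 to 326 counts per library, and Ndufb4 stood at 18.2 and 20.4 CPM in WT against 13.6 and 8.96 CPM in KO26 and KO337 (log2 difference -0.78, SE 0.30).

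Levels per transcript length differed widely among members. On the scale of RPKM, which is CPM per 1000 bases of the longest annotated protein-coding transcript, CTL levels ran from 1.74 ± 0.213 for Ndufb2 to 1188 ± 336 for Ndufa4 (SD, n = 3). Other high levels were those of Ndufb9 at 747 ± 178, Ndufb10 at 669 ± 118 and Ndufv1 at 521 ± 57.4 RPKM. Ndufb9 and Ndufb10 lay within their SDs of each other. In WT, mean levels were again highest for Ndufa4 (1029.7 RPKM), and Ndufb9 (511 RPKM) lay above Ndufb10 (466 RPKM). Low in both were Ndufb2 and Ndufa4l2, the latter at 4.97 ± 0.845 RPKM in CTL. The longest annotated transcript may not be the one expressed, and for Ndufb2 it was 4371 bases, the longest of all members.

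The rest of the respiratory chain had values close to those of complex I. Median differences for IBR and for labelled KO were -0.28 and -0.78 over the 4 genes of complex II, -0.37 and -0.78 over 9 of complex III, -0.33 and -0.72 over 13 of complex IV, and -0.27 and -0.75 over 15 of ATP synthase. Scaled to sarcomere markers, the labelled KO medians turned to 0.15, 0.14, 0.18 and 0.18, against 1.02 over all genes. Those for IBR stayed negative (-0.18, -0.27, -0.23 and -0.17), against 0.055 over all genes. EdgeR called 0 of these 41 genes in either comparison. At an unadjusted p under 0.05, 1 of complex IV and 1 of ATP synthase were lower in IBR, where 2.21% of all genes were. In labelled KO, 4, 7, 9 and 13 of the complexes in that order were lower, where 12.4% of all genes were. Sdha, the flavoprotein of complex II, stood at 1857, 1649 and 1588 CPM in CTL and 1400.2, 1694 and 1575 CPM in IBR (log2 difference -0.13, SE 0.19) and at 1297 and 1074 CPM in WT against 799 and 525 CPM in KO26 and KO337 (log2 difference -0.84, SE 0.24, edgeR adjusted p = 0.0802). Uqcrc1, a core protein of complex III, stood at 682 and 579 CPM in WT against 423 and 238 CPM in KO26 and KO337 (log2 difference -0.93, SE 0.26, edgeR adjusted p = 0.078). Cox6a1, a complex IV subunit found in most tissues, stood nearly level on the TMM scale, with 50.01 and 48.6 CPM in WT against 50.6 and 54.0 CPM in KO26 and KO337 (log2 difference 0.09, SE 0.14). Cox6a2 and Cox7a1, the heart and muscle isoforms, had differences of -0.75 and -1.27 there. In IBR the isoforms did not part in this way, with differences of -0.33 for Cox6a1, -0.24 for Cox6a2 and -0.48 for Cox7a1.

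**Figure D4:**
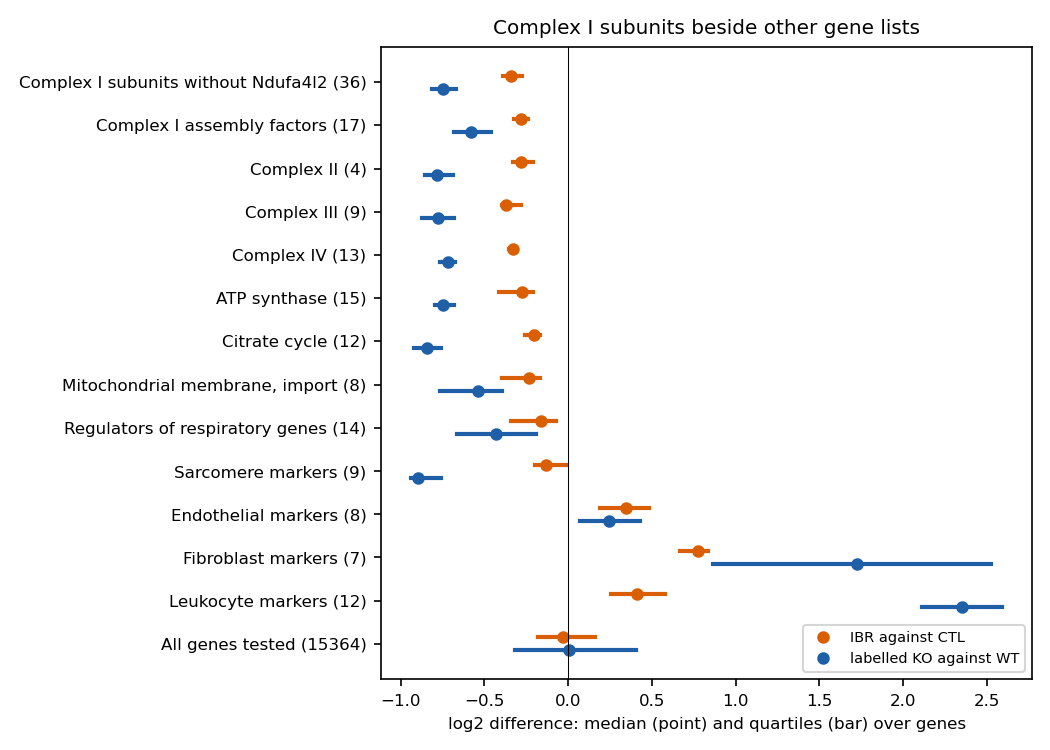
Median (point) and quartiles (bar) of the log2 difference over the tested genes of each list, whose number is in parentheses, for IBR against CTL and labelled KO against WT. Complex I lies beside the other respiratory complexes in both comparisons and beside the sarcomere markers in labelled KO against WT. Once scaled to those markers, 34 of 37 members are positive, where 94.3% of all genes are. Fibroblast and leukocyte markers lie on the other side of 0.

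Genes that build complex I without staying in it had negative differences for all 17 assembly factors tested in both comparisons. Scaling to sarcomere markers left 15 of 17 negative for IBR and made all 17 positive for labelled KO, where 94.3% of all genes were positive. The medians on the TMM scale were -0.28 and -0.58. EdgeR called 0 of them, with 3 and 12 lower at an unadjusted p under 0.05, where 2.21% and 12.4% of all genes were. Timmdc1, which helps assemble the membrane arm, stood at 59.5, 65.4 and 48.9 CPM in CTL and 38.9, 42.3 and 39.6 CPM in IBR (log2 difference -0.52, SE 0.19, edgeR adjusted p = 0.823), with the groups apart. Foxred1, an oxidoreductase needed for assembly, stood at 68.9 and 70.5 CPM in WT against 51.7 and 37.9 CPM in KO26 and KO337 (log2 difference -0.64, SE 0.16, edgeR adjusted p = 0.0623), and Dmac2, which takes part in assembling the distal arm, at 41.7 and 43.9 CPM in WT against 31.2 and 22.3 CPM in KO26 and KO337 (log2 difference -0.68, SE 0.18, edgeR adjusted p = 0.0693). Ndufab1, the acyl carrier protein that is part of complex I but falls outside the name rule, had differences of -0.32 and -0.62 (edgeR adjusted p = 0.175 for the latter).

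Of 14 regulators of respiratory genes, 13 were negative in IBR and 12 in labelled KO, with medians of -0.17 and -0.43. Scaling to sarcomere markers made 12 of the 14 positive for labelled KO, where 94.3% of all genes were positive. EdgeR called 0, with 1 and 5 lower at an unadjusted p under 0.05, where 2.21% and 12.4% of all genes were. Ppargc1a, the coactivator PGC-1alpha that drives mitochondrial biogenesis, stood at 199, 700.4 and 164 CPM in CTL and 166, 210.4 and 247 CPM in IBR (log2 difference -0.77, SE 0.55, edgeR adjusted p = 0.825) and at 272 and 725 CPM in WT against 151 and 225 CPM in KO26 and KO337 (log2 difference -1.41, SE 0.69, edgeR adjusted p = 0.228). CTL2 and WT338 alone were high, and the other 8 libraries lay between 151 and 272 CPM. Its relative Ppargc1b stood at 37.8, 34.9 and 31.6 CPM in CTL and 25.5, 24.98 and 28.6 CPM in IBR (log2 difference -0.40, SE 0.15, edgeR adjusted p = 0.823), with the groups apart. Perm1, a muscle regulator that acts with these coactivators, stood at 408, 489 and 397 CPM in CTL and 291, 323 and 309 CPM in IBR (log2 difference -0.49, SE 0.22, edgeR adjusted p = 0.823) and at 250.4 and 281 CPM in WT against 199 and 99.5 CPM in KO26 and KO337 (log2 difference -0.83, SE 0.27, edgeR adjusted p = 0.106), also apart in both. Esrra, the oestrogen-related receptor that works with PGC-1alpha, had differences of -0.34 and -0.70. The factor Nrf1, whose motif was searched for, had the highest difference of the list in labelled KO (0.16).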

How the data were processed

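Poly(A)-selected RNA of mouse left atria was sequenced in 10 libraries, grouped by their titles. The deposited files hold raw counts of reads per gene that the authors had not normalized. STAR, HTSeq, edgeR and build mm9 are named in the submitters' processing notes, without versions, and the annotation used for counting is not stated. File names describe the counting as not stranded, so that a gene and an antisense partner cannot be separated. Near-identical pseudogene copies can also split or lose a member's reads.

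The 5 summary rows of unassigned reads stayed out of library sizes, and reads in no gene were 13.5% to 19.9% of the records. Gene identifiers were given symbols from a reference list of gene names (87.4% matched), and types and transcript lengths from GENCODE vM21. That annotation is of another build, so no gene coordinates are printed. Promoters and their coordinates come from RefSeq. The software was edgeR 4.0.16, R 4.3.3 and limma 3.58.1. The 15364 genes kept by filterByExpr (minimum count 10, minimum total 15) were scaled by TMM, with factors of 0.87 to 1.03 in CTL, IBR and WT, 1.16 in KO26 and 1.23 in KO337. All comparisons came from 1 robust quasi-likelihood fit of the 4 group means, with 6 residual degrees of freedom, and p-values were adjusted over all genes by Benjamini-Hochberg. The common biological coefficient of variation was 0.221. Fitted separately it was 0.167 for CTL and IBR and 0.291 for WT and labelled KO, above the pooled value. The procedure was also run on simulated data. These gave a gene the same spread in every group, and so do not cover the difference between 0.167 and 0.291. The floor of 3 counts is 0.150 to 0.201 CPM. Alternatives were RLE size factors, scaling to sarcomere markers, DESeq2 1.42.0 and limma voom with sample quality weights. Further ones were no filter on low counts, the compared groups alone, each library left out, other member lists and the replicate number as a block.

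The members, gene lists and markers were chosen with earlier results of these data known. The rule for naming members takes the 7 core subunits, Ndufs4, Ndufs6, Ndufa4, Ndufa4l2 and Ndufab1. Per comparison the rule adds any called member, the 4 with the largest and the 4 with the smallest difference, and the 4 with the smallest p, or the 3 with the smallest p for the difference of effects. Of each other list it takes the 2 genes with the smallest p, and up to 3 of each marker list. Cox6a1, Cox6a2, Cox7a1, Ppargc1a, Esrra, Nrf1 and the promoter of Ndufa8 were chosen after values were seen. One member stands in the counts and medians but is not reported by name here.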

Additional observations from a re-analysis of the deposited data

How the results depend on the processing

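Scaled to sarcomere markers, KO against WT gave a median over members of 0.18 in place of -0.74. On that scale 1 member was called higher, where 63.7% of all genes were. The labelled KO effect minus the IBR effect had a median of 0.40 in place of -0.41. For IBR against CTL the median was -0.24 in place of -0.34, with 36 of 37 members negative. On that scale the log2 differences of KO against WT were 0.15 (Ndufs3), 0.19 (Ndufs7), 0.048 (Ndufv2), 0.040 (Ndufv1), 0.070 (Ndufs8), 0.23 (Ndufs4), 0.18 (Ndufs6), 0.035 (Ndufa4), 0.24 (Ndufb11), 0.29 (Ndufb7), 0.087 (Ndufb10), 0.25 (Ndufb5), 0.35 (Ndufa11), 0.69 (Ndufs5), 0.42 (Ndufa2), 0.40 (Ndufa6), 0.078 (Ndufa9), 0.11 (Ndufa10) and 0.19 (Ndufc2). Those of the effects' difference were 0.087 (Ndufv1) and 0.27 (Ndufa10). The scaling moves every gene by construction. The median over all genes became 1.02 for KO against WT, 0.055 for IBR against CTL and 0.95 for the difference of effects. For KO against WT, DESeq2 called 19 members lower and the fit without a filter 21, and the cause was not tested. Leaving out each library gave 0 to 35 members called lower, 0 to 1 called higher and medians from -1.14 (without KO26) to -0.44 (without KO337). For the difference of effects it gave 0 to 7 called lower and medians of -0.84 to -0.15, without the same libraries. For IBR against CTL it gave medians from -0.48 (without CTL3) to -0.21 (without CTL2) and 0 called. Ndufs5 in KO against WT ran from -1.13 (without KO26) to 2.08 (without WT35), was 0.40 without KO337, and was 0.17 with voom. A lone library left in a group was assumed to vary like the others. RLE size factors and the other member lists changed no call of a member.

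The CTL and IBR titles share numbers but name no animal or batch. Same-numbered libraries deviated together with correlations over genes of 0.016, 0.16 and 0.032, where CTL3 correlated best with IBR1 (0.18). Not all were over 0.1, so the numbers were not taken as pairs. Over the 37 members alone the correlations were 0.37, 0.40 and 0.21, each the highest for its CTL library, though CTL3 had 0.19 with IBR1. This is a hint from the data and not from the design. It comes from the same genes as the block result below, so it cannot back that result. With the number as a replicate block, the median of IBR against CTL was -0.29, with 0 called and 23 members lower at an unadjusted p under 0.05, where 4.97% of all genes were, against 12 in the same libraries without the block, where 3.6% were. WT and KO titles share no number. Every member had at least 52 counts in each library.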

Other observations

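The citrate cycle, which feeds NADH to complex I, had negative differences for all 12 genes tested in both comparisons. Scaling to sarcomere markers left 11 negative for IBR and made 8 positive for labelled KO, where 94.3% of all genes were positive. The medians on the TMM scale were -0.20 in IBR and -0.85 in labelled KO. EdgeR called 0 of the 12. At an unadjusted p under 0.05, 0 were lower in IBR, where 2.21% of all genes were, and 12 in labelled KO, where 12.4% were. Dlst, a subunit of the 2-oxoglutarate dehydrogenase complex, stood at 913, 798 and 803 CPM in CTL and 640.3, 677 and 643 CPM in IBR (log2 difference -0.36, SE 0.17). In the genotype libraries Dlst stood at 604 and 545 CPM in WT against 382 and 253 CPM in KO26 and KO337 (log2 difference -0.86, SE 0.21, edgeR adjusted p = 0.0607). Sucla2, of succinyl-CoA synthetase, stood at 551 and 475 CPM in WT against 319 and 177 CPM in KO26 and KO337 (log2 difference -1.05, SE 0.26, edgeR adjusted p = 0.0627). Genes of the mitochondrial membranes and of protein import had medians of -0.23 and -0.54 over 8 genes. All 8 were positive for labelled KO once scaled to sarcomere markers, where 94.3% of all genes were. EdgeR called 0 of them, with 1 and 5 lower at an unadjusted p under 0.05, where 2.21% and 12.4% of all genes were.

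Some genes stood at different levels between the drug libraries and the genotype libraries, which were not tested against each other. Ndufs5 ranged over 65.2 to 116 CPM in CTL and IBR, against 3.77 to 31.5 CPM in WT and labelled KO. For Ndufb4 the ranges were 40.9 to 82.2 CPM in CTL and IBR, against 8.96 to 20.4 CPM in WT and labelled KO. Atp5l, a subunit of ATP synthase, ranged over 146 to 247 CPM in CTL and IBR, against 12.6 to 24.0 CPM in WT and labelled KO. Ndufb2 went the other way, with 6.11 to 8.50 CPM in CTL and IBR, against 8.01 to 16.1 CPM in WT and labelled KO, where only KO337 lay within the range of the drug libraries. Reads without a unique position made up 17.9% to 27.4% of the records in CTL and IBR and 11.8% to 14.7% in WT and labelled KO, and the part of that share in these levels was not tested. The genes with these ranges were picked after their values were seen.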
